A study of Mus musculus with 15 samples.

Results

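The response of mouse macrophages to extracellular vesicles (EVs) from the plasma of mice irradiated 7 days earlier with 9 Gy, given as whole-body ionizing radiation (WBIR), was compared with the response to EVs from sham mice. Of the 561 genes counted, the 282 with a mean of at least 20 raw counts over the 3 samples given 9 Gy day 7 EVs and the 3 given sham EVs were examined, and the remaining 279 were not tested. These are 6 of the 15 samples of the series, which also holds EVs isolated 3 or 7 days after 2 Gy and 3 days after 9 Gy. The recipient cells were RAW264.7, an established macrophage line derived from a mouse tumor, and every group received LPS (1 µg/ml in the methods) together with the EVs for 24 hours. The labels give 30000000 EVs per exposure and the methods 10000000. EVs were collected by differential centrifugation from plasma of female C57BL/6J mice that were 6 to 8 weeks old. None of the groups lacked LPS or lacked EVs, so each difference is one between EV sources in LPS-treated cells. The sources used here give triplicate runs and do not say that these were separate cultures or separate donor pools, so p-values measure only the spread between samples, which may be technical.

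LPS is a component of the outer membrane of Gram-negative bacteria. Macrophages detect it through CD14 and Toll-like receptor 4, which signal by way of MyD88 to NF-κB and MAP kinases and, from endosomes, to IRF3 and the type I interferon gene Ifnb1. The first branch drives cytokines such as IL-6, IL-1 and IL-12, and the second drives interferon-stimulated genes through the IFNAR receptor, TYK2 and the STAT proteins. EVs are membrane vesicles that carry protein, lipid and RNA between cells and are taken up readily by macrophages.

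Total counts were between 453178 and 617963 with 9 Gy day 7 EVs and between 568097 and 729491 with sham EVs, whereas the geometric mean of the 14 housekeeping genes of the panel was between 801 and 872 counts with 9 Gy day 7 EVs and between 454 and 545 with sham EVs. The scale of the comparison therefore depended on the reference. Housekeeping scaling was used throughout, and the test was repeated with median-ratio scaling, TMM scaling (a trimmed mean of the gene ratios) and total-count scaling. Over the 282 genes, the log2 fold change had a median of -0.44, 0.03, -0.01 and 0.67 under these 4 scalings in that order. Of the housekeeping genes, 13 were tested. Polr1b entered the scaling at 4 to 17 raw counts but was not tested. Ppia, Tubb5 and Alas1 were higher with 9 Gy day 7 EVs under all 4 scalings, while Oaz1 had a log2 fold change of 0.06 and Rpl19 was lower under housekeeping scaling by a log2 fold change of -0.87 but at 0.22 under total-count scaling. The macrophage marker list fitted the cell line, in that all 11 markers measured passed the filter. Cd3e, the T cell receptor chain, was at 5 to 15 raw counts in these samples. In the 9 Gy day 7 group, replicates 1 and 2 were closer to each other (SD of log2 ratios over genes 0.31) than either was to replicate 3 (0.60 and 0.71). Between sham replicates it was 0.38 to 0.63. Values without replicate 3 are given where it moved a called log2 fold change of a gene described by over 1.5 times.

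**Figure D1:**
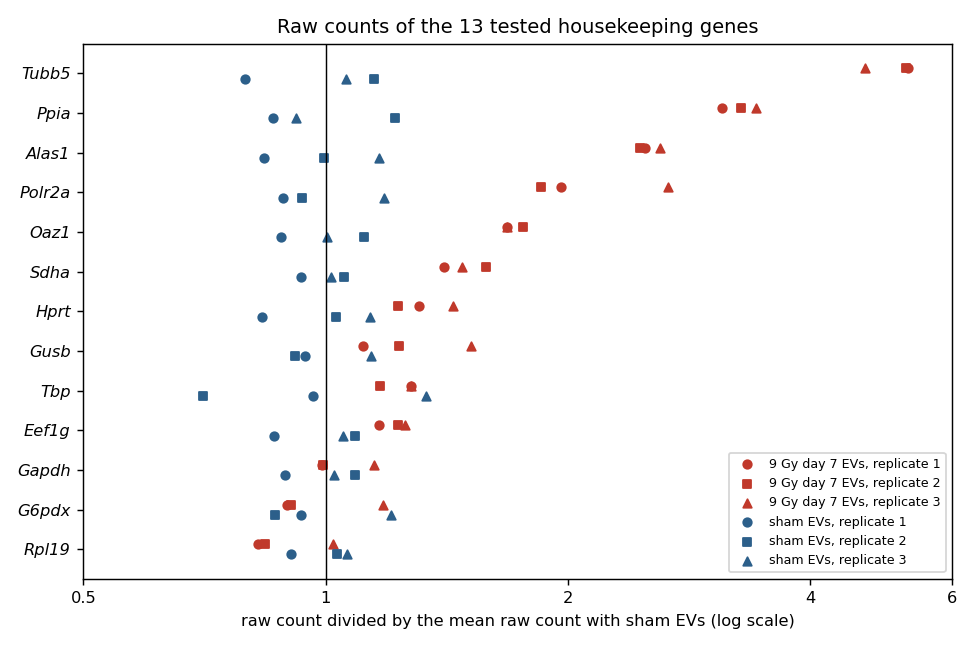
Raw counts of the 13 tested housekeeping genes (rows) in each of the 6 samples, divided by the mean raw count of the gene with sham EVs (horizontal log axis, with a vertical line at 1). Before any scaling, the red samples with 9 Gy day 7 EVs lay to the right of every blue sham sample for Tubb5, Ppia, Alas1, Polr2a and Oaz1, and among the sham samples or to their left for Rpl19.

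With 9 Gy day 7 EVs, the macrophages had less mRNA for IL-6, IL-1α, IL-1β, the p40 and p19 chains of IL-12 and IL-23, CD74 and β2-microglobulin, and more for interferon beta, CXCL10, the RNA sensor MDA5 (Ifih1), ICAM-1 and the M-CSF receptor. Of the 282 genes, 153 (54.3%) passed edgeR's quasi-likelihood test against sham EVs at the adjusted p threshold of 0.05, with 26 higher (9.22%) and 127 lower (45%). Without the adjustment, 169 genes were under this threshold. Values of the 3 samples with 9 Gy day 7 EVs lay entirely outside those of the sham samples for 169 genes (59.9%), above them in 34 and below them in 135. The predominance of falls belonged to the housekeeping scaling. The share of called genes that was lower was 83.0% there, 51.5% under median-ratio scaling, 54.5% under TMM and 15.2% under total counts, and 102 of the 127 lower genes were not lower under total counts. Of the 127, 67 were lower under housekeeping, median-ratio and TMM scaling alike. The 3 genes with the highest counts held 48.2% to 51.2% of all counts with sham EVs. With 9 Gy day 7 EVs they held 38.1% to 40.3%, a difference that enters the total-count scaling. Of all genes tested, 21.6% were higher and 25.9% lower under TMM, and 49.3% were higher and 8.87% lower under total counts. Genes called in the same direction under all 4 scalings numbered 51, of which 25 were lower (8.87%) and 26 higher (9.22%), and in all 51 the groups did not overlap. The 26 were all the genes called higher under housekeeping scaling, and the 25 all those called lower under total counts. In each direction the other scalings thus removed no further gene. These 51 genes are described first. Replicate 3 with 9 Gy day 7 EVs was the sample nearest to sham in 42 of them. Without sham replicate 1 the number of genes higher under all 4 scalings dropped to 14, and without 9 Gy day 7 replicate 2 to 13, whereas the number lower stayed between 20 and 31 whichever sample was left out. All 25 of the lower genes and 12 of the 26 higher genes also kept the housekeeping-scaled call whichever sample was left out. The other higher genes lost that call without at least 1 sample, given beside each gene. For Ptgs2, Bst1, Hamp, Itgal, B2m and Cd80 the call under all 4 scalings was lost without at least 1 sample.

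**Figure D2:**
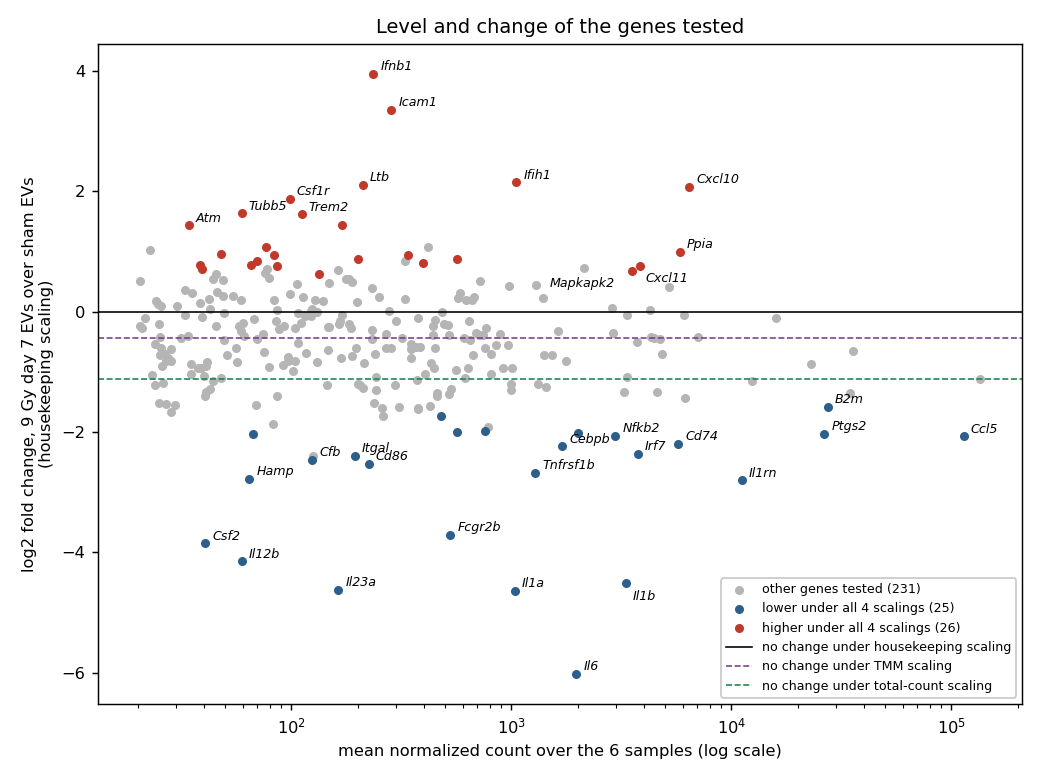
Each point is a gene tested, with its mean normalized count over the 6 samples on the horizontal log axis and its log2 fold change of 9 Gy day 7 EVs over sham EVs on the vertical axis, and the dashed lines mark where a gene unchanged under TMM or total-count scaling would lie. The 25 blue genes, led by Il6 at -6.02, lie below all of these lines and the 26 red genes, led by Ifnb1 at 3.95, above them, while the 231 grey genes were not called the same way under all 4 scalings.

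Cytokines gave the largest falls. Il6, which encodes the cytokine that drives the acute phase response, was at 53.1, 49.7 and 75.6 normalized counts with 9 Gy day 7 EVs and at 3484, 2799 and 5366 with sham EVs. The groups were far apart in every sample, with a log2 fold change of -6.02 (SE 0.34, adjusted p = 2.74e-05), the largest fall of any gene tested under housekeeping scaling. Il1b, which encodes interleukin-1β, was at 104, 79.0 and 646 against 6012, 8168 and 4833, and Il1a at 26.6, 30.9 and 181 against 2103, 2024 and 1859. In both genes replicate 3 with 9 Gy day 7 EVs stood above the other replicates but below every sham sample. The log2 fold changes were -4.52 (SE 0.82, adjusted p = 0.00281) for Il1b and -4.64 (SE 0.72, adjusted p = 0.00163) for Il1a, and both became -6.11 without replicate 3. The natural antagonist of both, Il1rn, fell as well, from 23790, 13325 and 21225 with sham EVs to 1745, 1452 and 5154. Its log2 fold change was -2.80 (SE 0.50, adjusted p = 0.00274) and became -3.60 without replicate 3.

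Of the IL-12 family subunits tested, Il12b, Il23a and Ebi3 fell and Il27 was not called. Il12b encodes the p40 chain shared by IL-12 and IL-23, and it was at 10.2, 3.26 and 5.24 normalized counts with 9 Gy day 7 EVs and at 109, 94.1 and 135 with sham EVs. Il23a, the p19 chain of IL-23, was at 11.7, 10.6 and 15.7 against 181, 488 and 275. Neither gene overlapped between groups, with log2 fold changes of -4.15 (SE 0.35, adjusted p = 0.000155) and -4.62 (SE 0.43, adjusted p = 0.000195). Ebi3, the shared chain of IL-27 and IL-35, was at 602, 786 and 1001 against 3527, 2969 and 3150, a smaller log2 fold change of -2.01 (SE 0.22, adjusted p = 0.000343). Il27, the p28 chain of IL-27, was at 3133, 3544 and 4449 against 3897, 8294 and 2624. Its groups overlapped, and its log2 fold change was -0.41 (SE 0.39, adjusted p = 0.394) under housekeeping scaling, 0.02 under TMM and 0.70 under total counts, not called under any of these. Csf2, which encodes GM-CSF, was at 4.69, 3.26 and 7.48 against 67.5, 39.1 and 122 (log2 fold change -3.85, SE 0.51, adjusted p = 0.000759). The raw counts of Csf2, Il12b and Il23a with 9 Gy day 7 EVs were between 4 and 21, and no background was subtracted, so their levels in this group are imprecise. Csf2, at 4 to 10, and Il12b, at 4 to 13, were at the level of Cd3e, so the sizes of their fitted falls are uncertain. With counts under 20 set to 20 their log2 fold changes were -2.21 (adjusted p = 0.00383) and -2.78 (adjusted p = 0.000119). In the list of inflammatory cytokines, 16 members were tested. Under housekeeping scaling 11 were lower and 1 higher, where 45% of all genes were lower and 9.22% higher, with a median log2 fold change of -1.59 against -0.44 over all genes tested. Under total counts 7 were lower and 4 higher, and under all 4 scalings 7 were lower and 1 higher, where 8.87% of all genes were lower.

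The fall did not extend to every cytokine. Tnf was at 2855, 2771 and 1995 normalized counts with 9 Gy day 7 EVs and at 2473, 4140 and 3075 with sham EVs. The groups overlapped, and the log2 fold change was -0.35 (SE 0.24, adjusted p = 0.249) under housekeeping scaling, 0.10 under TMM and 0.80 under total counts (adjusted p = 0.0247). Mif was at 5999, 6239 and 5566 against 4125, 5164 and 4103. Its groups did not overlap, but its log2 fold change of 0.41 (SE 0.16, adjusted p = 0.0650) did not pass the test under housekeeping scaling. It passed at 0.85 (adjusted p = 0.00424) under TMM and 1.53 (adjusted p = 0.000351) under total counts, and under housekeeping scaling at 0.45 (adjusted p = 0.0328) without 9 Gy day 7 replicate 3 and at 0.53 (adjusted p = 0.0277) without sham replicate 2. Ltb, which encodes lymphotoxin β, rose under all 4 scalings, from 54.5, 134 and 47.9 with sham EVs to 338, 421 and 269 (log2 fold change 2.11, SE 0.40, adjusted p = 0.00316, and 2.74 without sham replicate 2).

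**Figure D3:**
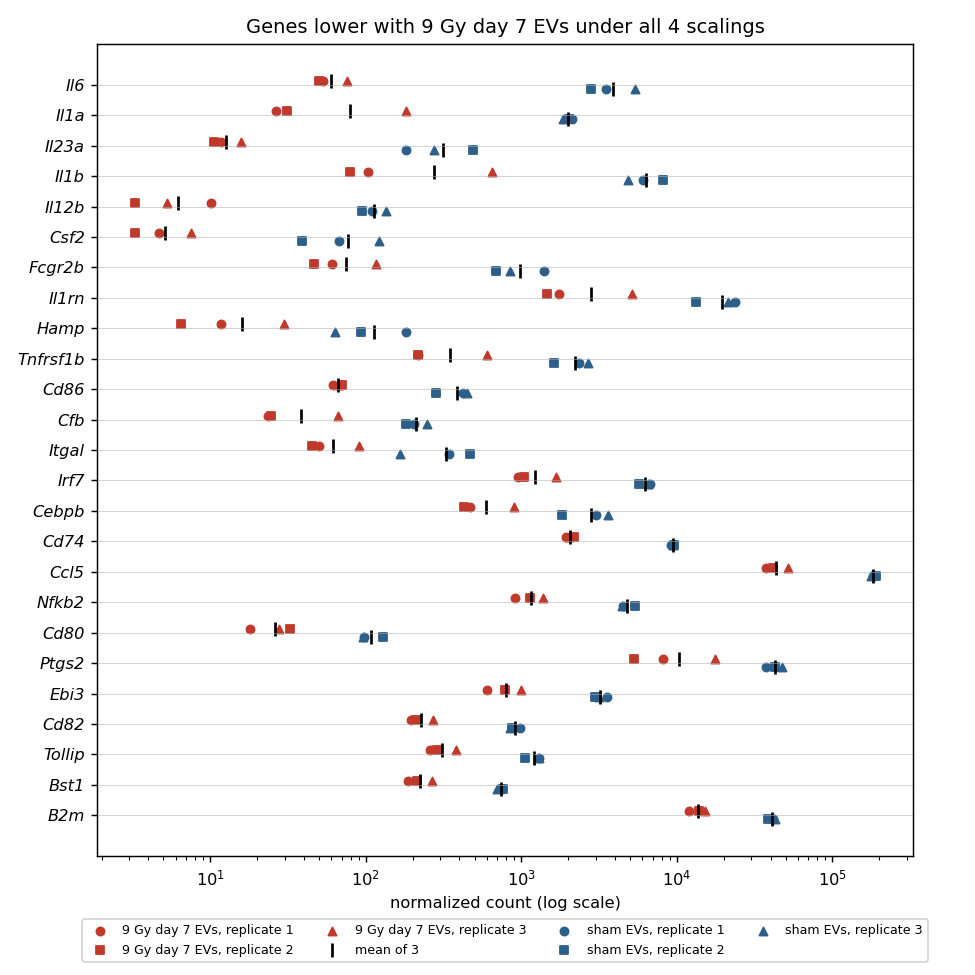
Normalized count on a log axis in each of the 6 samples for the 25 genes lower with 9 Gy day 7 EVs under all 4 scalings, with marker shape for the replicate number and a black bar for the mean of each group. In every row the 3 red samples lie to the left of the 3 blue sham samples, and the red triangle, replicate 3, is the highest of its group in 21 of the 25 genes.

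The largest rises were those of Ifnb1, Icam1, Ifih1, Ltb and Cxcl10, of which Ifnb1, Ifih1 and Cxcl10 belong to the interferon lists. Ifnb1, the gene for interferon β, was at 564, 578 and 187 normalized counts with 9 Gy day 7 EVs and at 24.4, 48.9 and 12 with sham EVs. Even the lowest sample with 9 Gy day 7 EVs, replicate 3, was above every sham sample. The log2 fold change was 3.95 (SE 0.59, adjusted p = 0.00129), the largest rise of any gene tested, against sham samples of 17, 40 and 10 raw counts. Cxcl10, a chemokine induced by interferon that attracts T cells, was at 12734, 13685 and 4820 against 2195, 3063 and 2121, and Ifih1, which encodes the cytosolic RNA sensor MDA5, was at 1799, 2232 and 1112 against 362, 451 and 341. Both were separate between groups, with replicate 3 again the lowest of the 9 Gy day 7 samples. The log2 fold changes were 2.08 (SE 0.38, adjusted p = 0.00297) and 2.16 (SE 0.28, adjusted p = 0.000673). Without replicate 3 they were 2.42 for Cxcl10, 2.39 for Ifih1 and 4.32 for Ifnb1, and Ifnb1 was at 4.63 without sham replicate 2.

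The 250 bases before the annotated starts of Il6 and Il1b, which fell, and of Ifnb1 and Cxcl10, which rose, are printed because the cytokine and interferon branches of LPS signaling act there through NF-κB and IRF proteins. Sequences are from RefSeq for GRCm38.p6, read 5′ to 3′ on the strand of the gene, with capitals for matches to the NF-κB consensus motif or to the IRF-type motif AANNGAAA, searched on both strands. They lie at chr5:30012864-30013113 (+) for Il6, chr2:129371140-129371389 (-) for Il1b, chr4:88522795-88523044 (-) for Ifnb1 and chr5:92348890-92349139 (-) for Cxcl10.
Il6: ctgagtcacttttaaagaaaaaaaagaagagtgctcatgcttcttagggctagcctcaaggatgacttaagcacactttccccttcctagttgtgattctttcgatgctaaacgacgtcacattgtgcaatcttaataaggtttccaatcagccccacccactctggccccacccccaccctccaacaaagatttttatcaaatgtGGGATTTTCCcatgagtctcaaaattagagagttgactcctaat
Il1b: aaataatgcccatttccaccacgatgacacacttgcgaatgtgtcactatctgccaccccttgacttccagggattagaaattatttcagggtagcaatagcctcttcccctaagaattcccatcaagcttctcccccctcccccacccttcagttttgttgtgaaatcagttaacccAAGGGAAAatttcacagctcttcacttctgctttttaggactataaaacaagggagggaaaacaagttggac
Ifnb1: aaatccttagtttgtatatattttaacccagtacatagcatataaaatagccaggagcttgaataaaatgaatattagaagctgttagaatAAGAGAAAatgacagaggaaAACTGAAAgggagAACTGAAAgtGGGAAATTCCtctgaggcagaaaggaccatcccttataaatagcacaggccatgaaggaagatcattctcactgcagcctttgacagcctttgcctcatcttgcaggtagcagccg
Cxcl10: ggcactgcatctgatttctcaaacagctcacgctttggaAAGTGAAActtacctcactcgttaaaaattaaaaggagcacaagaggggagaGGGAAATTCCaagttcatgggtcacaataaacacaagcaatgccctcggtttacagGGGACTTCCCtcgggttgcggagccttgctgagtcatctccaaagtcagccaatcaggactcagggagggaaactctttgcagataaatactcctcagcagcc
The window of Il6 held an NF-κB match from -44 to -35, counted from the start, and that of Il1b an IRF-type match from -72 to -65. In Ifnb1 an NF-κB match from -116 to -107 followed IRF-type matches that began at -159, -139 and -126. Cxcl10 had NF-κB matches from -159 to -150 and from -103 to -94 and an IRF-type match from -211 to -204, and in none of the 4 windows did matches of the different motifs overlap. An NF-κB match was found in 4.46% of the 27025 genes with a promoter of this length in the table, in 12.1% of the 214 tested genes with an entry, in 4 of 18 genes lower under all 4 scalings (22.2%) and in 4 of 21 genes higher (19%). For the IRF-type motif the shares were 23.9%, 27.6%, 33.3% (6 of 18) and 33.3% (7 of 21). A match is a run of letters and does not show that a protein was bound.

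Among the other interferon-stimulated genes, Mx1, an antiviral GTPase, was at 89.9, 146 and 77.8 normalized counts with 9 Gy day 7 EVs and at 53.1, 59.9 and 34.7 with sham EVs (log2 fold change 1.08, SE 0.31, adjusted p = 0.0189). Irgm1, an interferon-induced GTPase of autophagy that was singled out after its values were seen, had a log2 fold change of 0.94 (SE 0.27, adjusted p = 0.0201), and Cxcl11, a ligand of CXCR3 like CXCL10, one of 0.76 (SE 0.25, adjusted p = 0.0304). These rises passed under all 4 scalings with all samples. The housekeeping-scaled call was lost in 4 of the 6 fits that leave out a sample for Cxcl11 (without 9 Gy day 7 replicate 1 or 2 or sham replicate 1 or 3), in 3 for Irgm1 (without 9 Gy day 7 replicate 1 or 2 or sham replicate 3) and in 2 for Mx1 (without 9 Gy day 7 replicate 2 or sham replicate 3). Bst2, which encodes tetherin, went the other way under housekeeping scaling, at 2700, 3102 and 4172 against 8739, 9090 and 8998. Its log2 fold change was -1.43 (adjusted p = 0.000845), and it was -0.35 (adjusted p = 0.0745) under total counts. Ddx58, which encodes the RNA sensor RIG-I, was at 1328, 1673 and 1485 against 1285, 1394 and 1149. It overlapped between groups at a log2 fold change of 0.23 (adjusted p = 0.279). Ifit2 was at 3043, 3943 and 1009 against 1582, 1870 and 1384, with replicate 3 below all the sham samples, and its log2 fold change of 0.73 (SE 0.43, adjusted p = 0.183) became 1.12 (adjusted p = 0.00108) without that replicate. In the list of interferon-stimulated genes, 4 of 14 tested were higher and 5 lower under housekeeping scaling, where 9.22% of all genes were higher and 45% lower. Under total counts 8 were higher and 0 lower, beside 49.3% and 8.87% of all genes, and under all 4 scalings 4 were higher and 0 lower, beside 9.22% and 8.87%. The median log2 fold change was 0.15 against -0.44 over all genes tested.

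Genes of interferon induction and its receptor moved in both directions. Irf7, the factor that amplifies type I interferon production, was at 954, 1037 and 1680 normalized counts with 9 Gy day 7 EVs and at 6679, 5691 and 6471 with sham EVs. It was lower in every sample and under all 4 scalings, with a log2 fold change of -2.36 (SE 0.25, adjusted p = 0.000294), while Ifnb1 and Ifih1 of the same list were higher. Tyk2, the kinase of the interferon receptor, was at 96.1, 136 and 92.0 against 57.4, 64.8 and 68.2 (log2 fold change 0.76, SE 0.22, adjusted p = 0.0189), a call that was lost without 9 Gy day 7 replicate 2 or sham replicate 1. The receptor chains were lower under housekeeping scaling, with log2 fold changes of -0.85 for Ifnar1, -0.93 for Ifnar2 and -1.61 for Ifngr2, but under total counts they were 0.27, 0.15 and -0.54 and did not pass. Of the 13 members tested, 2 were higher and 5 lower under housekeeping scaling, where 45% of all genes were lower. Under total counts 7 were higher and 1 lower, where 49.3% of all genes were higher, and 2 were higher and 1 lower under all 4.

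**Figure D4:**
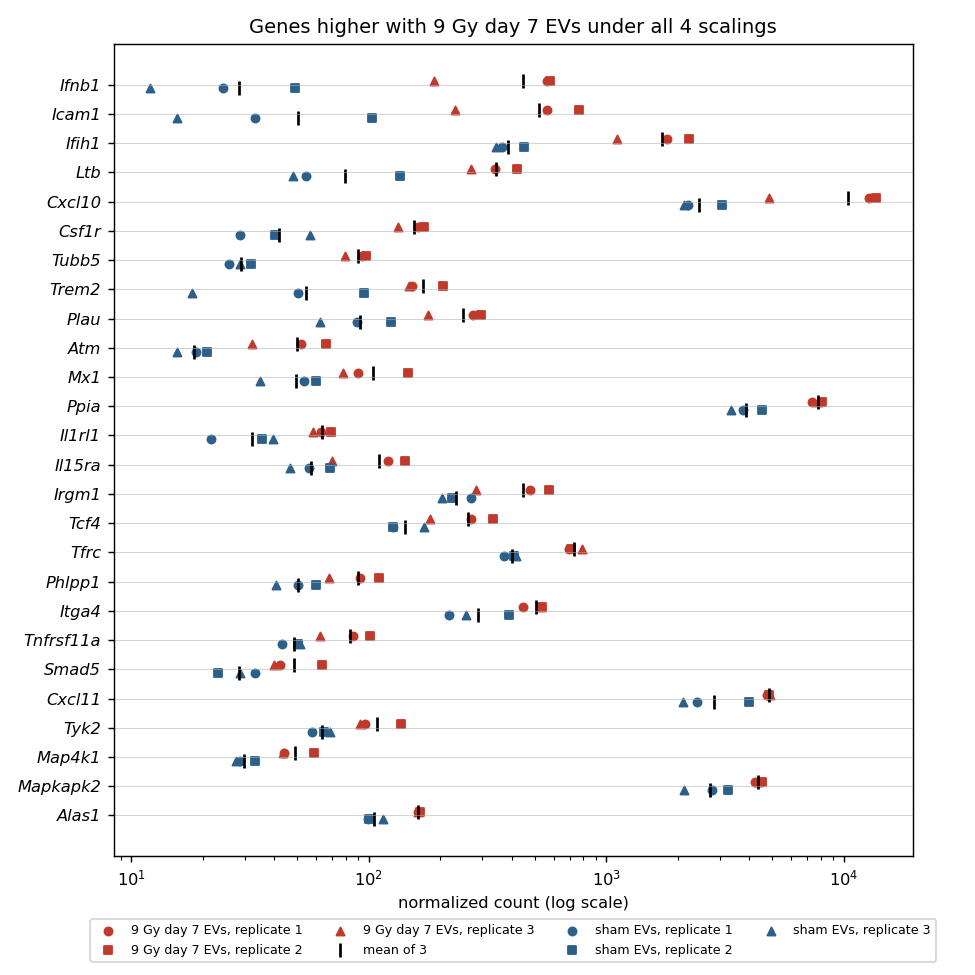
Normalized count on a log axis in each of the 6 samples for the 26 genes higher with 9 Gy day 7 EVs under all 4 scalings, with marker shape for the replicate number and a black bar for the mean of each group. In every row the 3 red samples lie to the right of the 3 blue sham samples, and the red triangle, replicate 3, is the lowest of its group in 21 of the 26 genes.

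In antigen presentation, Cd74 and B2m fell under all 4 scalings. Cd74, the invariant chain that guides MHC class II molecules, was at 1927, 2190 and 2014 normalized counts with 9 Gy day 7 EVs and at 9135, 9520 and 9449 with sham EVs. The spread within each group was small beside the gap, and the log2 fold change was -2.20 (SE 0.15, adjusted p = 6.28e-05). The class II genes H2-Aa and H2-Ab1 were not tested, with 3 to 17 raw counts in these samples. B2m, the light chain of MHC class I, was at 11920, 13910 and 15224 against 41479, 38641 and 42946 (log2 fold change -1.58, SE 0.15, adjusted p = 0.000225). The call of B2m under all 4 scalings was lost without sham replicate 1. The class I heavy chain H2-K1 and the loading factors Tapbp and Tap1 were also lower under housekeeping scaling, at log2 fold changes of -0.94, -0.82 and -0.60, but under total counts they were at 0.17, 0.29 and 0.53 without passing. Tap1 lost its housekeeping-scaled call without 9 Gy day 7 replicate 1 (adjusted p = 0.0993) or 3 (0.0578) or sham replicate 1 (0.113) or 3 (0.0648). In the class I list 4 of 4 genes tested were lower under housekeeping scaling, where 45% of all genes were, and 1 under all 4. H2-DMa, a class II peptide loading factor, was at -0.84 under housekeeping scaling (adjusted p = 0.0175) and at 0.26, not called, under total counts, so that 1 of 2 class II genes tested was lower under all 4. Its housekeeping-scaled call was lost without 9 Gy day 7 replicate 1 (adjusted p = 0.0564) or 2 (0.0551) or sham replicate 2 (0.0518). Of the 6 proteasome subunits 4 were lower under housekeeping scaling, beside 45% of all genes, and 0 under all 4. Under total counts 2 were higher, beside 49.3% of all genes, and 0 lower. Psmb7 was at -0.72 and Psmb10 at -1.14 under housekeeping scaling and at 0.38 and -0.06, not called, under total counts, while Psmb5 went from -0.47 (adjusted p = 0.0394) to 0.64 (adjusted p = 0.0156).

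The CD28 ligands Cd86 and Cd80 fell. Cd86, which engages CD28 on T cells, was at 61.7, 70.0 and 67.3 normalized counts with 9 Gy day 7 EVs and at 421, 284 and 445 with sham EVs. Cd80, the other CD28 ligand, was at 18.0, 32.6 and 27.7 against 97.6, 128 and 95.8. The groups of both genes stood well apart, at log2 fold changes of -2.53 (SE 0.23, adjusted p = 0.000187) and -2.04 (SE 0.26, adjusted p = 0.000673). Cd274, which encodes the checkpoint ligand PD-L1, was at 271, 310 and 344 against 756, 724 and 782. It was lower under housekeeping scaling (log2 fold change -1.29, SE 0.17, adjusted p = 0.000673) and at -0.19 (adjusted p = 0.383) under total counts. Cd40 and Cd83, 2 further ligands or markers of activated antigen-presenting cells, were lower under housekeeping scaling with log2 fold changes of -1.37 and -1.22, and were at -0.26 and -0.08, not called, under total counts. Without 9 Gy day 7 replicate 1 Cd40 was at -1.24 (adjusted p = 0.0513). Of the 7 members tested, 5 were lower and 0 higher under housekeeping scaling, beside 45% of all genes lower. Under total counts 2 were lower and 2 higher, beside 8.87% and 49.3% of all genes, and 2 were lower under all 4 scalings.

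Ccl5, which encodes RANTES, was at 37288, 41568 and 51892 normalized counts with 9 Gy day 7 EVs and at 183244, 189274 and 177821 with sham EVs. It fell under all 4 scalings, by a log2 fold change of -2.07 (SE 0.16, adjusted p = 0.000117). Ccl3, the macrophage inflammatory protein 1α gene, was lower under housekeeping scaling (log2 fold change -1.12, adjusted p = 0.00186) and at -0.02 under total counts, and Ccl9 was at -1.36 and -0.30. Ccl2, which attracts monocytes, was at 9100, 6470 and 30295 against 15774, 19444 and 14252. Replicate 3 with 9 Gy day 7 EVs was above every sham sample and the other replicates below, so the log2 fold change of -0.11 (SE 0.51, adjusted p = 0.862) was not a difference between groups. It was -1.08 (adjusted p = 0.00149) without replicate 3, and its sign turned to 0.32 under TMM and 0.90 under total counts. The receptor-like Ccrl2, which binds the chemoattractant chemerin, was at 125, 139 and 98.8 against 353, 418 and 430, lower under housekeeping scaling (log2 fold change -1.73, adjusted p = 0.000395) and at -0.60 (adjusted p = 0.0626) under total counts. Of the 5 chemoattractant receptors tested, 4 were lower and 0 higher under housekeeping scaling, where 45% of all genes were lower, and 0 were called in either direction under total counts. Of the 8 CC chemokines tested, 4 were lower and 0 higher under housekeeping scaling, a share near the 45% of all genes, and 3 were higher and 1 lower under total counts, beside 49.3% and 8.87%. Ccl5 was the member lower under all 4.

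LPS recognition and NF-κB genes held few changes that stood under every scaling. Tlr4 was at 46.9, 52.1 and 48.6 normalized counts with 9 Gy day 7 EVs and at 47.4, 37.9 and 64.6 with sham EVs. Its groups overlapped at a log2 fold change of -0.02 (SE 0.23, adjusted p = 0.931), but it was at 0.41 under TMM (adjusted p = 0.162) and 1.08 under total counts (adjusted p = 0.00961). The coreceptor Cd14 was lower under housekeeping scaling (log2 fold change -1.34, adjusted p = 0.00902) and at -0.28 (adjusted p = 0.408) under total counts. Tlr2 was at 0.55 (adjusted p = 0.0731) and 1.67 (adjusted p = 0.000649) under the same scalings, and under housekeeping scaling at 0.79 (adjusted p = 0.0132) without sham replicate 2. Of the 12 genes of the Toll-like receptor pathway tested, 4 were lower and 0 higher under housekeeping scaling, and 0 were lower and 7 higher under total counts. These shares lay near those of all genes, 45% lower and 49.3% higher in turn, and 0 members were called in either direction under all 4.

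Of the NF-κB genes, Nfkb2, the precursor of p52 in the noncanonical pathway, was at 916, 1138 and 1380 against 4535, 5415 and 4414 with sham EVs. It was the member of its list that fell under all 4 scalings (log2 fold change -2.06, SE 0.20, adjusted p = 0.000226). Nfkb1 and Relb overlapped between groups, with log2 fold changes of 0.31 and 0.25 that were not called under housekeeping scaling and of 1.44 and 1.38 that were called under total counts. Without sham replicate 2 Nfkb1 was called under housekeeping scaling, at 0.58 (adjusted p = 0.0258). Nfkbia, the inhibitor IκBα, was at -0.94 (adjusted p = 0.00365) and at 0.17 (adjusted p = 0.520) under those scalings. Of the 11 members tested, 3 were lower and 0 higher under housekeeping scaling, 1 was lower and 4 higher under TMM, and 1 was lower and 8 higher under total counts. Of all genes, 45% were lower under housekeeping scaling, 21.6% higher under TMM and 49.3% higher under total counts. Tollip, an adaptor that restrains Toll-like receptor signaling, was at 259, 285 and 379 against 1289, 1048 and 1294, a fall under all 4 scalings (log2 fold change -1.98, SE 0.21, adjusted p = 0.000294). Socs3, a brake on cytokine signaling, was at 22.7, 17.1 and 80.1 against 235, 73.3 and 326. Replicate 3 with 9 Gy day 7 EVs overlapped sham replicate 2, and its log2 fold change of -2.39 (SE 0.68, adjusted p = 0.0180) was -1.39 (adjusted p = 0.0694) under total counts and -3.40 without replicate 3. The call was lost without 9 Gy day 7 replicate 1 (adjusted p = 0.0817) or 2 (0.0536) or sham replicate 3 (0.0572). Among 14 feedback inhibitors tested, 7 were lower and 1 higher under housekeeping scaling, a share near the 45% of all genes lower. Under total counts 2 were lower and 7 higher, the latter near the 49.3% of all genes, and 2 were lower and 1 higher under all 4. The higher one under all 4 was Il1rl1, the IL-33 receptor, at 62.5, 69.2 and 58.4 against 21.5, 35.5 and 39.5.

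**Figure D5:**
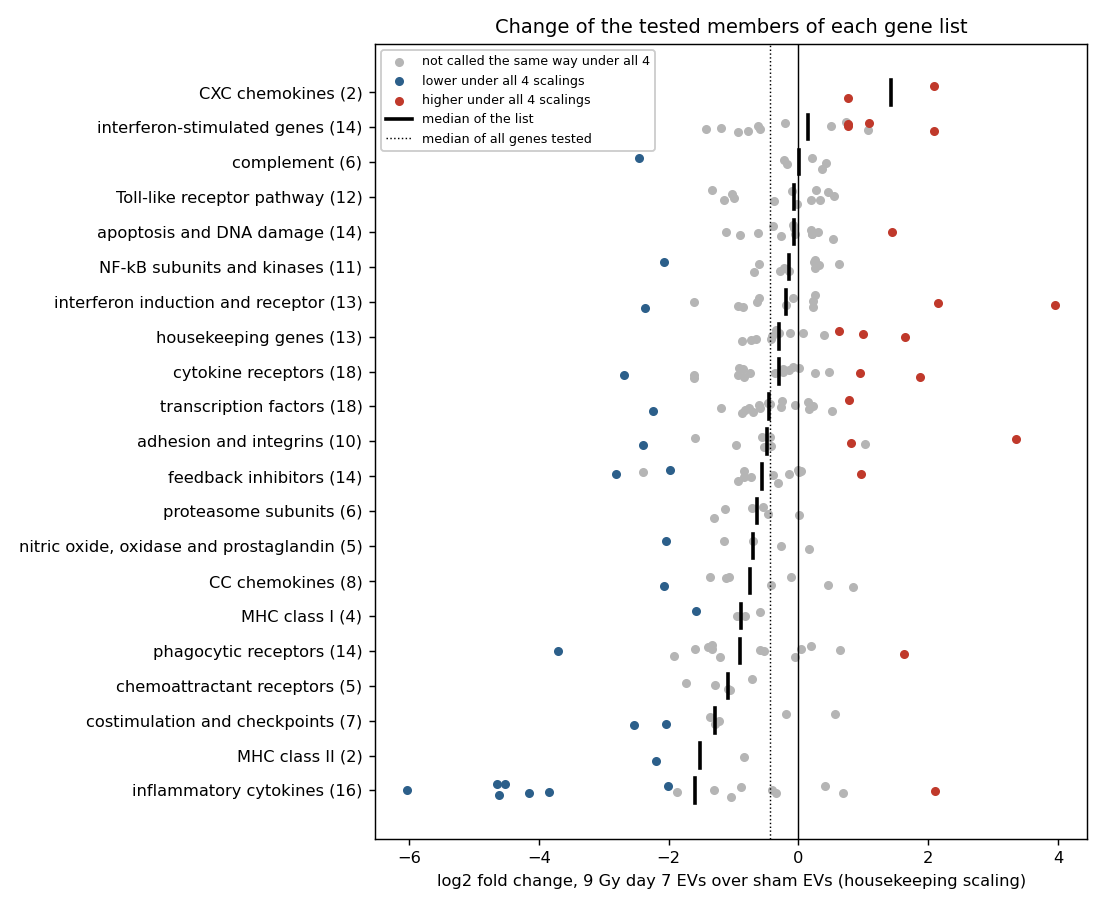
Log2 fold change under housekeeping scaling (horizontal axis) of each tested member of 21 gene lists (rows, with the number tested in brackets), with a thick bar for the list median and a dotted line for the median of all genes tested, -0.44. The inflammatory cytokines have the lowest median, -1.59, and hold 7 blue genes, while the interferon-stimulated genes have a median of 0.15 and hold 4 red genes and 0 blue genes.

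Surface receptors of the macrophage split. Csf1r, the M-CSF receptor on which macrophages depend, was at 161, 171 and 132 normalized counts with 9 Gy day 7 EVs and at 28.7, 40.3 and 56.3 with sham EVs. Every sample was above all of sham (log2 fold change 1.88, SE 0.26, adjusted p = 0.000878). Trem2, a lipid receptor that signals through TYROBP, was at 152, 205 and 147 against 50.2, 95.4 and 18.0 (log2 fold change 1.62, SE 0.47, adjusted p = 0.0195). That call was lost without 9 Gy day 7 replicate 1 or 2 or sham replicate 1, and the value was 2.33 without sham replicate 2. Tyrobp itself was at 4111, 4599 and 4209 against 4306, 3842 and 4442, with overlap and a log2 fold change of 0.04 under housekeeping scaling, 0.47 under TMM and 1.15 under total counts, called under the last 2. Fcgr2b, the inhibitory Fcγ receptor, fell from 1405, 688 and 850 with sham EVs to 61.0, 46.4 and 117 (log2 fold change -3.71, SE 0.42, adjusted p = 0.000395). Fcer1g and Msr1, the common Fc receptor γ chain and a scavenger receptor, were lower under housekeeping scaling at -1.33 and -1.20, and not called under total counts at -0.23 and -0.14. In the list of phagocytic receptors, 8 of 14 tested were lower and 1 higher under housekeeping scaling, where 45% of all genes were lower and 9.22% higher. Under total counts 1 was lower and 5 higher, beside 8.87% and 49.3% of all genes, and 1 was lower and 1 higher under all 4. Of the macrophage markers themselves, 7 of 11 were lower and 1, Csf1r, higher under housekeeping scaling, and under total counts 0 were lower and 4 higher, beside 45% of all genes lower and 49.3% higher in turn. The marker genes of other blood cells were sparse: 2 of 16 measured T cell markers, 2 of 8 B cell, 1 of 10 NK and cytotoxic, 1 of 9 granulocyte and mast cell and 0 of 3 platelet markers passed the filter. The summed raw counts of the T cell list were 231 to 287 with 9 Gy day 7 EVs and 220 to 318 with sham EVs, and those of the platelet list 15 to 20 and 10 to 24. Their part in the results was not tested.

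Adhesion genes moved with opposite signs. Icam1, the ligand of leukocyte integrins, was at 563, 764 and 231 normalized counts with 9 Gy day 7 EVs and at 33.0, 103 and 15.6 with sham EVs (log2 fold change 3.35, SE 0.67, adjusted p = 0.00427). The lowest 9 Gy day 7 sample was still above the highest sham sample, and the log2 fold change was 4.44 without sham replicate 2. Itgal, the LFA-1 chain that binds ICAM-1, was at 50.0, 44.8 and 90.5 against 345, 468 and 165, a fall with a log2 fold change of -2.39 (SE 0.43, adjusted p = 0.00274). Itga4, the VLA-4 chain, rose by a log2 fold change of 0.81 (SE 0.24, adjusted p = 0.0207), a call that was lost without 9 Gy day 7 replicate 2 or sham replicate 1 or 3. Of 10 members tested, 2 were higher and 4 lower under housekeeping scaling, the latter near the 45% of all genes. Under total counts 5 were higher and 1 lower, near the 49.3% and 8.87% of all genes, and 2 were higher and 1 lower under all 4. Plau, which encodes urokinase, was at 275, 296 and 178 against 89.0, 123 and 62.2 (log2 fold change 1.44, SE 0.30, adjusted p = 0.00488).

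Among effector enzymes, Ptgs2, which encodes the inducible cyclooxygenase COX-2, was at 8154, 5278 and 17701 normalized counts with 9 Gy day 7 EVs and at 37662, 42600 and 47255 with sham EVs. Replicate 3 was the highest of its group and below every sham sample, and the log2 fold change was -2.03 (SE 0.41, adjusted p = 0.00422) under housekeeping scaling, with calls under all 4, and -2.66 without replicate 3. Its call under all 4 was lost without 9 Gy day 7 replicate 1 or sham replicate 2 or 3. Nos2, the inducible nitric oxide synthase, was at 585, 495 and 1012 against 860, 841 and 821. Replicate 3 lay above and the other replicates below sham, with a log2 fold change of -0.27 (SE 0.27, adjusted p = 0.420) that turned to 0.16 under TMM and to 0.79 (adjusted p = 0.0123) under total counts. Without replicate 3 it was -0.64 (adjusted p = 0.0134). Cybb, the catalytic chain of the phagocyte NADPH oxidase, was lower under housekeeping scaling (log2 fold change -1.14, adjusted p = 0.00158) and at -0.03 under total counts. Cfb, complement factor B, was at 23.4, 24.4 and 66.6 against 205, 181 and 247, and it fell under all 4 scalings (log2 fold change -2.46, SE 0.40, adjusted p = 0.00179, and -3.13 without replicate 3). Of the 6 complement genes tested it was the one called under housekeeping scaling, where 45% of all genes were lower, and under total counts, where 49.3% of all genes were higher, the other 5 were called higher.

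Hamp, which encodes hepcidin, the hormone that blocks iron export, was at 11.7, 6.51 and 29.9 normalized counts with 9 Gy day 7 EVs and at 182, 92.9 and 63.4 with sham EVs (log2 fold change -2.78, SE 0.56, adjusted p = 0.00434, and -3.59 without replicate 3). Its raw counts with 9 Gy day 7 EVs were 15, 8 and 40, of which replicates 1 and 2 lay within the range of Cd3e, so the size of the fall is uncertain. Tfrc, the transferrin receptor, which was singled out after its values were seen, was at 696, 712 and 786 against 372, 410 and 415 (log2 fold change 0.87, SE 0.16, adjusted p = 0.00281). Both passed under all 4 scalings, in opposite directions, and neither overlapped between groups. Alas1, the first enzyme of heme synthesis and a housekeeping gene of the panel, was at 160, 164 and 160 against 99.0, 100 and 115 (log2 fold change 0.62, adjusted p = 0.0141, not called without sham replicate 1), so it rose while also entering the scaling. Ppia (cyclophilin A) was at 7367, 8111 and 7769 against 3751, 4526 and 3336, and Tubb5, a tubulin, at 93.8, 96.9 and 79.3 against 25.8, 31.8 and 28.7. Scaled to the remaining 11 housekeeping genes, an alternative chosen after seeing the data, 127 genes were called, 45 higher and 82 lower.

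Receptors and signaling genes made up most of the remaining calls under all 4 scalings. Of the genes named next, Tnfrsf11a, Cd82, Bst1, Mapkapk2, Map4k1, Tcf4 and Phlpp1 were singled out because they completed this set of 51. Tnfrsf1b, the second TNF receptor, was at 217, 215 and 605 normalized counts with 9 Gy day 7 EVs and at 2361, 1610 and 2693 with sham EVs (log2 fold change -2.68, SE 0.44, adjusted p = 0.00186, and -3.36 without replicate 3). Tnfrsf11a, which encodes RANK, and Il15ra, the IL-15 receptor chain, rose with log2 fold changes of 0.78 and 0.95, calls that were each lost in 4 of the 6 fits that leave out a sample (without 9 Gy day 7 replicate 1 or 2 or sham replicate 1 or 3). Cebpb, a transcription factor of inflammatory macrophages, was at 469, 429 and 891 against 2997, 1813 and 3625 (log2 fold change -2.24, SE 0.36, adjusted p = 0.00179). Cd82, a tetraspanin, and Bst1, an ectoenzyme that makes cyclic ADP-ribose, fell with log2 fold changes of -2.01 and -1.73. Atm, the kinase that responds to DNA double-strand breaks, was at 51.6, 65.9 and 32.2 against 18.7, 20.8 and 15.6, a rise of 1.44 (SE 0.32, adjusted p = 0.00695). Its raw counts were 13 to 17 in sham samples. It was the 1 member of the 14 tested in the list of apoptosis and DNA damage that rose under all 4 scalings, a share near the 9.22% of all genes, and 3 were lower under housekeeping scaling, where 45% of all genes were. Under total counts 11 of the 14 were higher, where 49.3% of all genes were, and Bax, which promotes apoptosis, was at 0.20 (adjusted p = 0.308) under housekeeping scaling and at 1.32 (called) under total counts. Mapkapk2 and Map4k1, kinases of MAP kinase pathways, rose by 0.68 and 0.70, calls that were lost without 9 Gy day 7 replicate 2 or sham replicate 1 or 3. Smad5, Tcf4 and Phlpp1, a BMP signal transducer, a transcription factor and a phosphatase of AKT, had log2 fold changes of 0.78, 0.89 and 0.84. With a sample left out, the call was lost in 5 of 6 fits for Smad5 (in all but that without 9 Gy day 7 replicate 3), in 4 for Tcf4 (without 9 Gy day 7 replicate 1 or 2 or sham replicate 1 or 2) and in 4 for Phlpp1 (without 9 Gy day 7 replicate 1 or 2 or sham replicate 1 or 3). The transcription factors Stat3 and Xbp1 were lower under housekeeping scaling at -0.60 and -1.11, and were at 0.49 and -0.01, not called, under total counts. Stat3 lost its housekeeping-scaled call without 9 Gy day 7 replicate 1 or 2 or sham replicate 1 or 3. Irf5 overlapped between groups at 0.23 and was at 1.37, called, under total counts.

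Pparg, Ahr and Il10 were under the mean of 20 counts and entered only the fit without the filter. Their raw counts were 10, 15 and 8 with 9 Gy day 7 EVs against 6, 5 and 11 with sham EVs for Pparg, and 4, 4 and 8 against 4, 2 and 9 for Ahr. Il10 was at 5, 15 and 21 against 32, 20 and 20, and after housekeeping scaling all 3 samples with 9 Gy day 7 EVs were below sham. The raw counts of Il10 overlapped between groups. In the fit without the filter, which was run under housekeeping scaling only, Il10 had a log2 fold change of -1.53 (adjusted p = 0.0184). For Pparg and Ahr the groups overlapped, at adjusted p = 0.824 and 0.383.

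The same samples were also set against 2 Gy day 7 EVs, which come from the same day and a lower dose. The 9 Gy day 7 samples are shared by both comparisons, so values alike in both are not independent support for either. Of the 282 genes, 150 (53.2%) differed, 25 higher and 125 lower under housekeeping scaling, with a median log2 fold change of -0.40. The geometric mean of the housekeeping genes was 479 to 588 counts with 2 Gy day 7 EVs, below the 9 Gy day 7 samples, as with sham EVs. This split therefore also rests on the scaling, and it is not given under the others. Il6 was at 4934, 3528 and 2716 normalized counts with 2 Gy day 7 EVs, and the log2 fold change of 9 Gy day 7 over 2 Gy day 7 was -5.97 (adjusted p = 1.48e-05). Cd74 was at 9830, 9313 and 9569, with a log2 fold change of -2.23 (adjusted p = 3.95e-05). Ifnb1 was at 15.3, 56.5 and 42.2, with a log2 fold change of 3.54 (adjusted p = 0.00181), and Cxcl10 at 2684, 3598 and 3269, with a log2 fold change of 1.71 (adjusted p = 0.00665). In these 4 genes the samples with 9 Gy and 2 Gy day 7 EVs did not overlap. Some smaller rises did not pass in this comparison. Plau was at 58.7, 174 and 169 with 2 Gy day 7 EVs (log2 fold change 0.90, adjusted p = 0.0885), Mx1 at 51.7, 79.8 and 66.8 (0.66, adjusted p = 0.0865) and Cxcl11 at 2717, 4093 and 4464 (0.36, adjusted p = 0.176).

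Against 9 Gy day 3 EVs, 0 of the 282 genes (0%) passed edgeR's quasi-likelihood test after adjustment, 4 were under 0.05 unadjusted, and DESeq2 called 0. The 9 Gy day 3 samples had total counts of 43176 to 87899, and replicates 1 and 2 carry a day label of 7, against the day 3 of their titles. Replicate 3 with 9 Gy day 3 EVs deviated from its group mean in the same direction as replicate 3 with 9 Gy day 7 EVs (r = 0.69 across genes, which are not independent replicates). The median absolute log2 fold change was 0.17 beside a median SE of 0.28, so a difference of the size of the smaller changes described above may not have been detectable, and the absence of calls does not show that the days were alike. Among the 51 genes called under all 4 scalings, the largest absolute log2 fold change between the days was 1.53. Counting 9 Gy day 3 replicates 1 and 2 as day 7 gave 175 genes against sham EVs, 36 higher and 139 lower.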

How the data were processed

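The Mouse Immunology panel of the nanoString nCounter system was used, which counts color-coded probes bound to mRNA without amplification. The authors deposited raw counts per gene and sample, and according to the methods normalized them in nSolver with settings that are not given in the sources used here. The lowest deposited count was 1 and control probes were not used here, so no background was subtracted. Groups followed the sample titles. Of the 282 symbols tested, 275 matched RefSeq for GRCm38.p6 directly, 6 as older symbols and 1 not at all.

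Each sample was brought to a common geometric mean of 14 housekeeping genes, and a normalized count is the raw count divided by the sample's factor. The 6 samples entered edgeR 4.0.16 (R 4.3.3) with glmQLFit and glmQLFTest, a prior count of 0.125 and Benjamini-Hochberg adjustment over all genes whose mean reached 20 raw counts, with a threshold of 0.05. The SE is the absolute log2 fold change divided by the square root of F. The other groups were kept out because the 9 Gy day 3 samples are shallow, and were added as alternatives. An exact permutation test of 3 against 3 samples cannot give a p under 0.1. Deviations of same-numbered 9 Gy day 7 and 9 Gy day 3 samples from their group means correlated at 0.32, 0.38 and 0.69 across genes. Replicate 2 with 9 Gy day 7 EVs correlated at 0.42 with replicate 1 with 9 Gy day 3 EVs, above its same-numbered value. These values set replicate 3 apart in both groups but do not settle a pairing by number. The fit with the replicate number as a block was run as an alternative for these groups and also called 0 genes. No pair of samples agreed within sampling noise. On simulated counts the procedure recovered 100% of 134 genes changed by 1.5 on the log2 scale among 282, with 3 false calls (2.19%). There the housekeeping genes were unchanged, rises and falls had the same size, and all genes shared the same dispersion without an outlying replicate. The simulation therefore cannot show the error rate where housekeeping genes change or a replicate stands apart, as in these data.

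The members and gene lists were chosen with earlier results of these data known. Named genes were the 12 largest falls and rises called under all 4 scalings without overlap, in each list the 4 tested members with the highest mean and all called under the 4 scalings, and a set of markers of macrophage activation and the housekeeping genes. Not every such gene is described, and others are marked where they appear. Alternatives were the scaling (DESeq2 1.42.0 included), the filter, a floor of 20 counts, the groups in the fit, a replicate block, the conflicting day labels and leaving out each sample.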

Additional observations from a re-analysis of the deposited data

Results flagged for a closer look

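The difference between 9 Gy day 7 EVs and 2 Gy day 7 EVs, a contrast of doses on the same day, was called in 150 of the 282 genes, which marks it as a difference between groups tested directly. Its samples with 9 Gy day 7 EVs are those of the comparison with sham EVs.

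Among the 279 genes with a mean under 20 raw counts, 3 with a mean of at least 15 raw counts with 9 Gy day 7 EVs had all 3 of those samples above all 3 sham samples after scaling, which marks values outside the tested genes. They were chosen by this separation after their values were seen, so it is a description and not a test. Smad3, which transduces TGF-β signals, was at 33, 31 and 32 raw counts against 10, 6 and 6. Socs1, a brake on interferon signaling, was at 17, 22 and 26 against 8, 6 and 3, and Ctsc, a lysosomal protease, at 27, 25 and 27 against 11, 13 and 9. In the other direction, 27 of the 279, each with a mean of at least 15 raw counts with sham EVs, had all 3 samples with 9 Gy day 7 EVs below all 3 sham samples after scaling, likewise chosen by their values. The scaling divided counts by 1.23 to 1.34 with 9 Gy day 7 EVs and by 0.70 to 0.84 with sham EVs. Ciita, at 16, 11 and 22 raw counts against 13, 14 and 20, overlapped before scaling. The larger number below than above therefore depends on the scaling. The low values of all these genes carry a large counting error.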

How the results depend on the processing

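The number of genes called against sham EVs, 153, lay between 108 and 204 under every alternative run, and its split did not hold. Genes higher numbered 63 under median-ratio scaling, 61 under TMM, 139 under total counts, 65 in DESeq2 with its own size factors, 17 with a mean of at least 100 counts and 45 with 11 housekeeping genes, an alternative chosen after seeing the data. Genes lower numbered 67, 73, 25, 71, 91 and 82 in the same order, so most calls were still lower with a mean of at least 100 counts. Leaving out each sample gave 113 to 168 genes called, 13 to 35 higher and 94 to 133 lower, and 13 to 35 higher and 20 to 31 lower under all 4 scalings, with 13 higher without 9 Gy day 7 replicate 2 and 14 without sham replicate 1. With the replicate number as a block, 144 genes were called, and of the genes described Smad5 (adjusted p = 0.0780), Stat3 (0.0560) and Tcf4 (0.0555) were not. Same-numbered 9 Gy day 7 and sham samples correlated at -0.16, 0.27 and 0.11 and were not treated as pairs. Against 2 Gy day 7 EVs between 105 and 198 genes were called, and against 9 Gy day 3 EVs 0 throughout.

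Signs turned mainly with the scaling. Under total counts the log2 fold change was 0.90 for Ccl2, 0.45 for Gapdh, 0.26 for H2-DMa, 0.17 for H2-K1, 0.27 for Ifnar1, 0.15 for Ifnar2, 0.17 for Nfkbia, 0.79 for Nos2, 0.38 for Psmb7, 0.22 for Rpl19, 0.49 for Stat3, 0.53 for Tap1, 0.29 for Tapbp, 1.08 for Tlr4, 0.70 for Il27 and 0.80 for Tnf. Under median-ratio scaling and in DESeq2 with its own size factors Ccl2 was at 0.35, Nos2 at 0.20, Tlr4 at 0.46, Tnf at 0.14 and Il27 at 0.046, and under TMM they were at 0.32, 0.16, 0.41, 0.10 and 0.024. With 11 housekeeping genes Ccl2 was at 0.18, Nos2 at 0.026 and Tlr4 at 0.27. Tlr4 was also at 0.10 with housekeeping genes of a mean of at least 100 and at 0.039 with counts under 20 set to 20. With each sample left out in turn, Ccl2 ranged from -1.08 to 0.26, Tlr4 from -0.19 to 0.21, Il27 from -0.72 to 0.19 and Tyrobp from -0.023 to 0.080. The scaling turns signs by construction, since it moves every gene by the same amount, and for the other settings the cause was not tested. Differences in genes of few counts are the least certain.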
